A study of Mus musculus with 3 samples.

Results

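The genes described here encode the chains of the receptors for type I interferons, interferon gamma, IL-6, IL-10 and IL-27. They are Ifnar1, Ifnar2, Ifngr1, Ifngr2, Il6ra, Il6st, Il10ra, Il10rb and Il27ra, 9 of 55536 genes with an Ensembl ID in the gene tables, matched by symbol. Their RNA was measured by polyA-selected RNA sequencing in effector memory CD4+ alpha-beta T cells, helper T cells that have met antigen before and patrol tissues. The cells came from a male mouse of the strain B6.SJL-Ptprca Pepcb/BoyJ aged 5 months, whose labels name no treatment. All 3 libraries are technical replicates from 1 biosample by their labels, so an SD here is a spread between libraries, and no animals or conditions could be compared. No source used here describes the sort.

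These receptors have no enzymatic activity of their own, and each works as a pair or larger complex in which one chain binds the cytokine and its partner completes the signalling complex. Janus kinases bound to the tails of the chains phosphorylate them, and STAT transcription factors then dock there and move to the nucleus. Il6st, also called gp130, is shared between the IL-6 and IL-27 receptors, and Il10rb is shared between the IL-10, IL-22 and interferon lambda receptors. In CD4+ T cells, IL-6 and IL-10 act chiefly through STAT3.

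Libraries 1, 2 and 3 held 17474991, 15303615 and 16882311 expected counts on Ensembl genes. The receptor genes took 0.376%, 0.264% and 0.259% of them. All 9 of 9 markers of alpha-beta T cells were detected, that is, had at least 1 TPM (transcripts per 1e6 transcripts) in each library, and their summed TPM ran from 9923 to 12779. Of 63 markers of other cell types, 12 were detected and 11 had no count. The largest summed levels among these lists were 58.3 to 95.6 TPM for plasma cells, nearly all of it Jchain, and 43.6 to 61.3 TPM for dendritic cells, while none of 8 B cell markers was detected. Library 1 stood apart from the others: of 11694 detected genes, 41.9% had a TPM at least 1.5-fold higher or lower there than the geometric mean of libraries 2 and 3.

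For 3 receptor genes the transcript tables divided the signal between a long coding transcript and a shorter one that ends early, and the sequences show where the members of each pair part. Each line gives the last 60 bases of coding sequence that a pair shares in lower case, 5′ to 3′, followed in capitals by what that transcript reads next, up to its stop codon or for 60 bases. They were read from GENCODE M21 transcripts on GRCm38, all on the plus strand.
Ifnar2-201: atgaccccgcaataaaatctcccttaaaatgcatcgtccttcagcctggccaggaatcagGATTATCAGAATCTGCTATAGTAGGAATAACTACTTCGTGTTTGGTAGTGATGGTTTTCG
Ifnar2-203: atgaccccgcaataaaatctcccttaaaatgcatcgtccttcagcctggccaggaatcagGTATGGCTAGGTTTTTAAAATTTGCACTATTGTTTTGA
Ifngr1-201: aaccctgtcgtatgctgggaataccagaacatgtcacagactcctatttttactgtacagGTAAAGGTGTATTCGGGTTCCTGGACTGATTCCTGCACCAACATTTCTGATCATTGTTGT
Ifngr1-203: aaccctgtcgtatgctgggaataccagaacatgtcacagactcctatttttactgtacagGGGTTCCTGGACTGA
Ifngr2-201: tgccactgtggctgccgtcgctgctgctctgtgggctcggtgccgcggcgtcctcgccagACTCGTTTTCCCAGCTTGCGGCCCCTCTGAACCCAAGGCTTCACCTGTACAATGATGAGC
Ifngr2-202: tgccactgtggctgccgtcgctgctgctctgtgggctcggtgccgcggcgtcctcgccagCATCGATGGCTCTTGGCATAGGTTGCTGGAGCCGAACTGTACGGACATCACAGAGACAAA
In Ifnar2 the pair shared 236 codons. Ifnar2-201 then spliced from chromosome 16 position 91393913 to 91399218 and encoded 513 residues, whereas Ifnar2-203 read on into the intron from 91393914, added 12 residues of its own and stopped at 248. In Ifngr1 the pair shared 71 codons on chromosome 10. The exon of Ifngr1-203 ended at 19597516, that of Ifngr1-201 at 19597530, and both continued at the same next exon, so that 14 bases separated a reading frame of 477 residues from one that stopped after 75. In Ifngr2 the pair shared 23 codons on chromosome 16, after which Ifngr2-202 skipped the exon starting at 91554948 and stopped after 46 residues, against 332 in Ifngr2-201.

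All 9 receptor genes were detected, as were 44.9% of 22028 protein-coding genes (9900). Their median level was 86.5 TPM, against 28.9 TPM for the detected protein-coding genes. In a bulk sample, fewer cells that make a transcript and less of it per cell cannot be told apart. The levels spanned a ratio of 77.8 between the means of the highest and the lowest gene, and Ifngr1 alone held 67.8% of their summed TPM. On the counts of an earlier annotation per base, described below, these values were 17.8 and 37.9%.

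**Figure D1:**
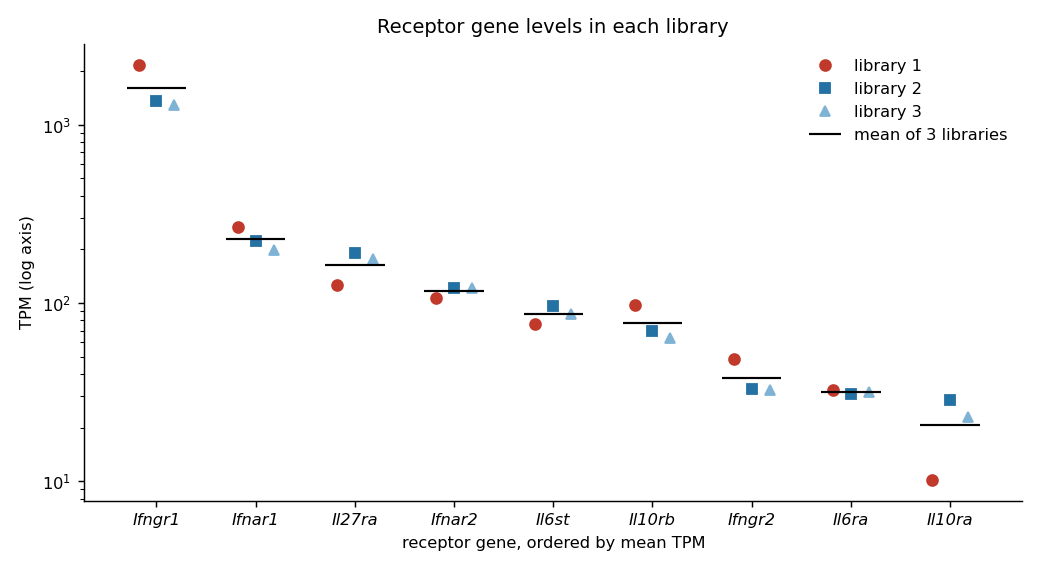
TPM of each receptor gene in library 1 (circles), library 2 (squares) and library 3 (triangles) on a log axis, with lines at the means. Ifngr1 lies above 1286 TPM in every library and every other gene lies at or below 267 TPM. For Il10ra, library 1 lies at 10.2 TPM, under both other libraries.

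The interferon gamma receptor held the widest gap between its chains. Ifngr1 (ENSMUSG00000020009.13, chr10:19591949-19610229 on GRCm38 as all positions here, plus strand) encodes the chain that binds interferon gamma and carries JAK1. It had 2167 TPM in library 1, 1365 TPM in library 2 and 1286 TPM in library 3, a mean of 1606 ± 487 TPM (SD, n = 3). Its mean ranked 49th of the 9900 detected protein-coding genes, and library 1 was the high one. Ifngr2 (ENSMUSG00000022965.8, chr16:91547072-91565623, plus strand) encodes the signalling partner that carries JAK2, and mouse Th1 cells are known to hold little of it. Ifngr2 had 48.4, 33.1 and 32.4 TPM in libraries 1, 2 and 3, a mean of 37.95 ± 9.04 TPM (SD, n = 3), and ranked 4150th. Library 1 was again the high one, and the other libraries lay close together. The ratio of Ifngr1 to Ifngr2 was 44.8 in library 1, 41.3 in library 2 and 39.7 in library 3. On the log2(TPM + 1) scale the difference averaged 5.35 ± 0.096 (SD, n = 3). Its size and its spread depended on the table: on the counts of an earlier annotation described below, the log2 difference was 3.05 ± 0.42 (SD, n = 3) and library 1 had the lowest ratio and not the highest.

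The type I interferon receptor chains were closer to each other. Ifnar1 (ENSMUSG00000022967.13, chr16:91485238-91507441, plus strand) encodes the chain bound by TYK2. Its level was 267 TPM in library 1, 222 TPM in library 2 and 199 TPM in library 3, a mean of 229 ± 34.6 TPM (SD, n = 3), ranked 676th. Ifnar2 (ENSMUSG00000022971.18, chr16:91372783-91405589, plus strand) encodes the high-affinity binding chain, which carries JAK1. It measured 107, 121 and 122 TPM in libraries 1, 2 and 3, with a mean of 117 ± 8.42 TPM (SD, n = 3) and rank 1514. Library 1 was highest for Ifnar1 and lowest for Ifnar2 in TPM, though the log2 difference of Ifnar2 was only -0.01 with DESeq2 size factors. Ifnar1 exceeded Ifnar2 in every library, by 2.49, 1.83 and 1.63 times, or 0.96 ± 0.31 on the log2(TPM + 1) scale (SD, n = 3).

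Among the receptors that use Il6st, the IL-27 chain exceeded the IL-6 chain. Il27ra (ENSMUSG00000005465.9, chr8:84030294-84042589, minus strand), the chain particular to IL-27, had 125, 190 and 177 TPM in libraries 1, 2 and 3, a mean of 164 ± 34.0 TPM (SD, n = 3). Library 1 was low and the others lay near each other. Il6ra (ENSMUSG00000027947.11, chr3:89864059-89913196, minus strand), the chain that binds IL-6 but does not signal by itself, had 32.7, 30.8 and 31.5 TPM. Its mean of 31.6 ± 0.933 TPM (SD, n = 3) had the smallest relative spread of the 9 genes in TPM, a coefficient of variation of 2.95%. That place depended on the table and the scaling. On the counts of an earlier annotation described below, taken per length and library total, Il6ra had 30.1 ± 3.02 (SD, n = 3). Ifngr1, at 324 ± 9.01, and Ifnar2, at 78.8 ± 3.38, spread relatively less there (SD, n = 3 each). With DESeq2 size factors the log2 difference of library 1 was 0.25 for Il6ra and -0.01 for Ifnar2. Il6st (ENSMUSG00000021756.12, chr13:112464070-112510086, plus strand), the shared signalling chain, had 76.4, 96.3 and 86.9 TPM, a mean of 86.5 ± 9.95 TPM (SD, n = 3), and library 1 was the lowest. Il27ra stood 1.88 ± 0.213 times as high as Il6st, and Il6ra stood at 0.370 ± 0.0541 of Il6st (SD, n = 3 libraries each). Every library kept Il27ra above Il6st and Il6st above Il6ra.

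The IL-10 receptor showed the largest spread between libraries. Il10ra (ENSMUSG00000032089.16, chr9:45253837-45269149, minus strand), the chain that binds IL-10, had 10.2 TPM in library 1, 28.7 TPM in library 2 and 23.1 TPM in library 3. Its mean of 20.6 ± 9.51 TPM (SD, n = 3) was the lowest of the 9 and its coefficient of variation, 46.1%, the highest. Il10rb (ENSMUSG00000022969.13, chr16:91406164-91425834, plus strand), the shared partner that carries TYK2, had 97.3, 69.4 and 63.8 TPM, a mean of 76.8 ± 17.96 TPM (SD, n = 3). Library 1 was thus the low one for Il10ra and the high one for Il10rb. The ratio of Il10ra to Il10rb was 0.104 in library 1, 0.414 in library 2 and 0.361 in library 3. The log2 difference averaged -1.94 ± 1.04 (SD, n = 3) over the libraries and -1.34 ± 0.13 over libraries 2 and 3 alone.

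By mean TPM the order of the genes was Ifngr1, Ifnar1, Il27ra, Ifnar2, Il6st, Il10rb, Ifngr2, Il6ra and Il10ra. For 6 of the 8 neighbouring pairs in this order the ranges of the 3 libraries did not overlap. Il6st and Il10rb overlapped and changed places in library 1, so their order held in 2 of 3 libraries. Ifngr2 and Il6ra overlapped in range but kept their order in each library. Leaving out any 1 library left all 9 places as they were.

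**Figure D2:**
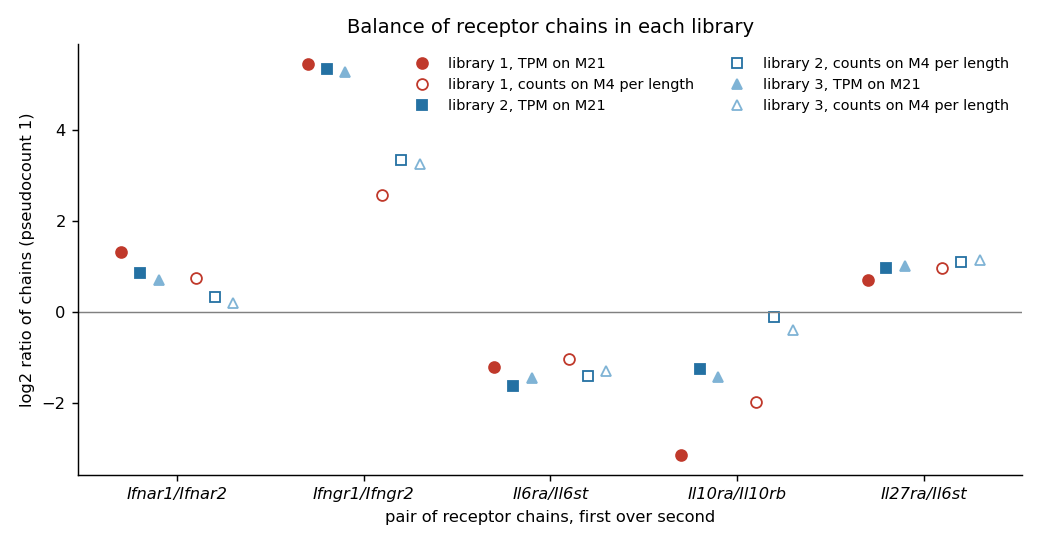
Log2 ratio of the first chain over the second in each library, from TPM on GENCODE M21 (filled symbols) and from counts on GENCODE M4 per base of effective length, scaled to the library's total (open symbols). Ifngr1 over Ifngr2 lies between 5.27 and 5.46 on TPM and between 2.56 and 3.34 on M4 counts, and Il10ra over Il10rb is lowest in library 1 on both.

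The transcript tables gave each transcript's percent of its gene's TPM, which is an estimate, since most reads match several transcripts. Ifnar2-203, the form that stops before the membrane-spanning stretch that follows in Ifnar2-201, took 50.4%, 52.1% and 49.6% in libraries 1, 2 and 3. Ifnar2-201 took 36.1%, 42.7% and 37.1%. A soluble form of IFNAR2 made by alternative RNA processing is known in mouse. By expected counts the order turned round, with 29.2% ± 0.320 for Ifnar2-203 and 63.4% ± 4.51 for Ifnar2-201 (SD, n = 3 each). Ifnar2-203 is 1099 bases long and Ifnar2-201 is 3047. Of the exon bases of Ifnar2-203, 127 lay outside Ifnar2-201, all of them in the intron that it reads into.

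Ifngr1 was divided between its coding transcript and one annotated for nonsense-mediated decay, the pathway that degrades messages with an early stop codon. Ifngr1-201 had 1155 TPM in library 1, 576 TPM in library 2 and 597 TPM in library 3. Ifngr1-203 had 877, 605 and 528 TPM. Ifngr1-201 took 47.3% ± 5.59 of the gene's TPM and Ifngr1-203 took 42.0% ± 2.09 (SD, n = 3 each), and Ifngr1-203 was ahead in library 2. Ifngr1-203 has no exon base that Ifngr1-201 lacks, so only reads across its own junction, or the 138 bases that it lacks, tell them apart. GENCODE gives Ifngr1-203 a transcript support level of 5, the lowest grade.

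Ifngr2 was divided likewise. Ifngr2-202, also annotated for nonsense-mediated decay at support level 5, took 58.0% ± 4.94 of the gene's TPM and 15.7% ± 2.94 of its expected counts (SD, n = 3 each). The coding Ifngr2-201 took 41.4% ± 6.001 of the TPM and 83.4% ± 4.57 of the counts. With 534 bases against 3708, the shorter transcript weighs more per length than per read. Ifngr2-201 itself had an estimated 16.7, 14.9 and 14.5 TPM in libraries 1, 2 and 3. By this estimate the coding form differed less between libraries than the gene as a whole, with library 1 still the highest. Ifngr2-202 has no exon base that Ifngr2-201 lacks, so only reads across its own junction, or the 3174 bases that it lacks, tell them apart.

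Ifnar1 was led by a transcript that keeps an intron. Ifnar1-205, which ends at position 91491789 inside the gene, took 39.6%, 48.7% and 47.2% of the TPM in libraries 1, 2 and 3. The coding Ifnar1-201, with 590 residues, took 42.5%, 38.1% and 38.6%, so the coding form was ahead in library 1 and the retained intron in both others. By expected counts Ifnar1-201 led in each library, with a mean of 52.4% ± 2.45 against 33.8% ± 4.03 for Ifnar1-205 (SD, n = 3 each).

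The other genes were led by 1 coding transcript in every library. Il6ra-201 (460 residues) took 97.3% of the gene's TPM on average, Il10ra-201 (575 residues) 92.2%, Il10rb-201 (351 residues) 85.0% and Il27ra-201 (623 residues) 80.8%. Il10ra-201 varied most, with 96.1%, 100% and 80.6% in libraries 1, 2 and 3. Il27ra-203, a retained intron transcript of 527 bases, took 13.9% ± 3.21 of the TPM but 2.85% ± 0.727 of the counts of Il27ra (SD, n = 3 each). In Il6st the full-length Il6st-201 (917 residues) took 65.0% of the TPM and 87.0% of the counts. A fragment of 322 bases, Il6st-205, took 22.9% ± 3.31 of the TPM and 1.63% ± 0.309 of the counts (SD, n = 3 each). GENCODE gives Il6st-201 and Il6st-205 a support level of 5 as well. Il6st-203, also of 917 residues, has level 1 and took 2.27% of the TPM on average.

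**Figure D3:**
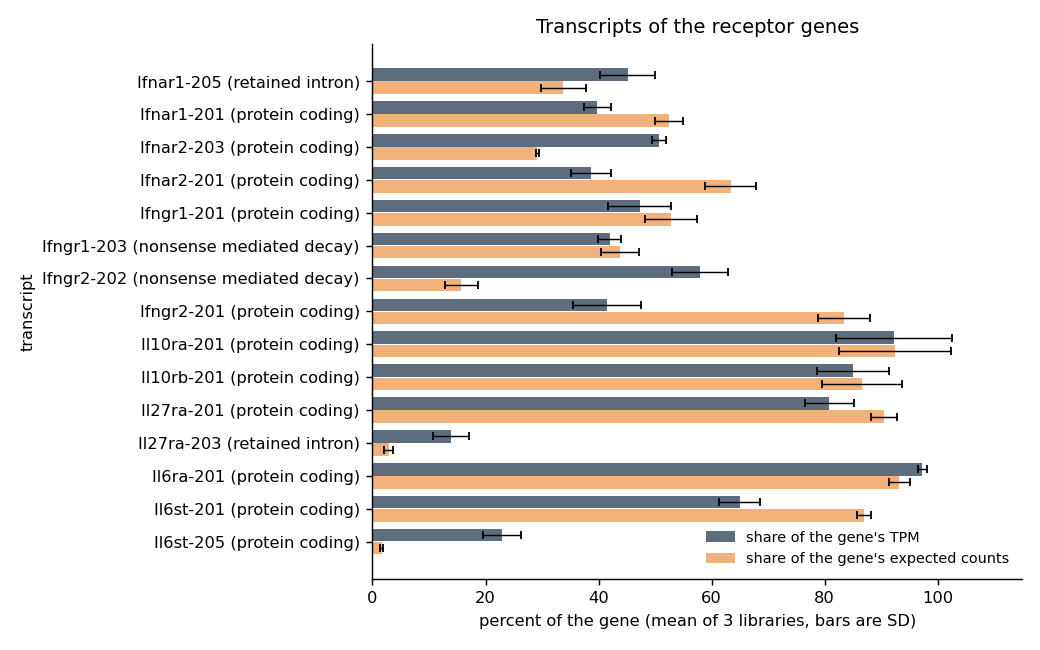
Mean share of each transcript in its gene's TPM (dark bars) and in its gene's expected counts (light bars), for the leading transcript of each gene and each further one with at least 10% of the TPM. Error bars are SD over the 3 libraries, and the short transcripts Ifngr2-202, Il27ra-203 and Il6st-205 have far larger shares of TPM than of counts.

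Counts of all 9 genes differed between the libraries beyond counting error at a Benjamini-Hochberg adjusted p below 0.05 in a chi-square test of homogeneity, but so did 75.8% of the 13177 genes tested. The test compares these libraries and not conditions. Its calls depend on the number of counts: 35.8% of genes were called with no count minimum and 82.4% with a minimum of 100. The receptor genes had from 2042 to 90633 counts, so the shares over all genes given here are not of genes with like counts. The weakest call was Il6ra, with a chi-square test adjusted p of 0.0368 (Benjamini-Hochberg), and it was lost without library 2 (adjusted p = 0.731). Dividing each chi-square by the median overdispersion of all genes, 19.9, left 21.6% of genes and 4 of the 9 receptor genes: Ifngr1, Ifnar1, Il27ra and Il10ra. Between libraries 2 and 3 the same test called 16.7% of 12468 genes and 3 receptor genes, Ifnar1, Il6st and Il10ra.

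Library 1 lay outside the range of libraries 2 and 3 for all 9 genes, above both in 5 and below both in 4. Of the 11694 detected genes, 42.2% lay above both and 47.7% below both in library 1, so this count is near that of genes at large. Called and at least 1.5-fold higher in library 1 were 16.0% of the genes tested and 1 receptor gene, Ifngr1, 1.63-fold above the geometric mean of the others. Called and at least 1.5-fold lower were 24.1% of the genes tested and 1 receptor gene, Il10ra, at 0.417 of that mean. The median size of the log2 difference was 0.54 over the receptor genes and 0.48 over all detected genes. In log2(TPM + 1) the differences of library 1 from the others were 0.71 for Ifngr1, 0.55 for Ifngr2, 0.54 for Il10rb, 0.34 for Ifnar1 and 0.07 for Il6ra on the higher side. On the lower side they were -0.18 for Ifnar2, -0.26 for Il6st, -0.54 for Il27ra and -1.26 for Il10ra. For Ifnar2 the value was -0.01 with DESeq2 size factors, where its call was lost, and 0.00 on the M4 counts. T cell markers also differed in library 1, in both directions, with Trac at 6922 TPM there against 3647 and 3493 TPM in libraries 2 and 3, and Cd4 at 269 TPM against 541 and 523 TPM. Their part in the receptor differences was not tested.

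**Figure D4:**
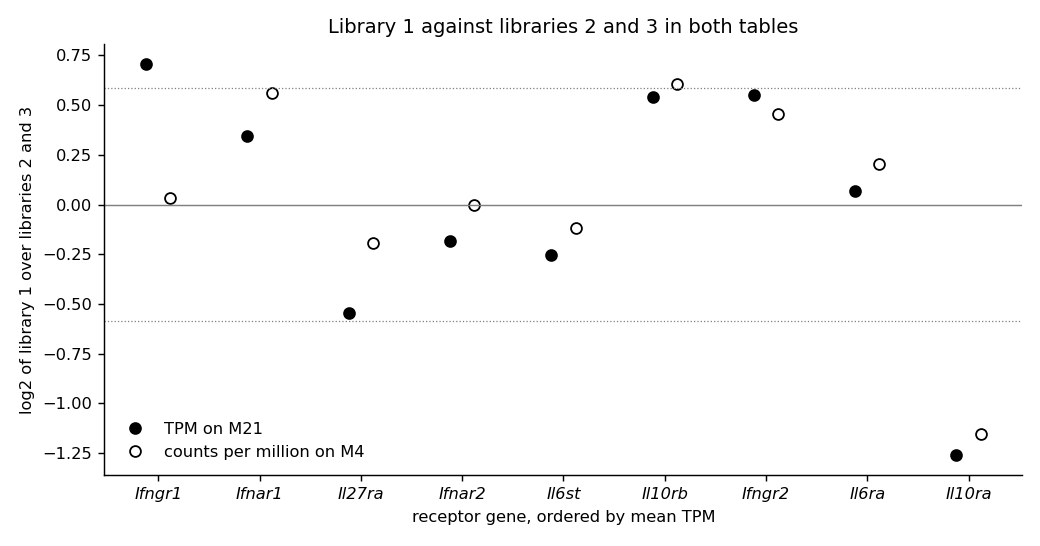
Log2 of library 1 over the geometric mean of libraries 2 and 3 for each receptor gene, from TPM on GENCODE M21 (filled) and counts per 1e6 on GENCODE M4 (open), with dotted lines at 1.5-fold. The tables differ most for Ifngr1, at 0.71 on M21 and 0.03 on M4.

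A further table of whole-number counts on GENCODE M4, which came to 5104745, 5047736 and 5278506 counts in libraries 1, 2 and 3, gave another picture of Ifngr1. There the counts of Ifngr1 were 3102, 3043 and 3080 for libraries 1, 2 and 3. The expected counts on M21 were 44539, 21822 and 24272, which is 14.4, 7.17 and 7.88 times as many, whereas the other 8 genes had 1.80 to 4.96 times as many. The chi-square test on the M4 counts called 68.4% of 10219 genes and 7 receptor genes. The exceptions were Ifngr1 (chi-square test, Benjamini-Hochberg adjusted p = 0.291) and Ifnar2 (adjusted p = 0.646). Between libraries 2 and 3 the M4 counts called 0.984% of 9857 genes and no receptor gene, the lowest being Il6st (chi-square test, Benjamini-Hochberg adjusted p = 0.246).

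Across genes, the gap between the tables was larger in groups with more expected counts per base on M21. Those counts also enter the gap itself, so the groups are not independent of it. In library 1, genes under 1 expected count per base of effective length had a median of 1.79 times as many counts on M21 as on M4, and those with 10 or more per base had a median of 21.1 times. In libraries 2 and 3 the median for the genes with 10 or more per base was 24.5 and 27.8 times. The lower quartiles of that group were 10.1, 13.8 and 12.9 times in libraries 1, 2 and 3. Ifngr1, at 14.4, 7.17 and 7.88 times, lay below the lower quartile in libraries 2 and 3. Ifngr1 had 23.3, 12.1 and 13.3 expected counts per base on M21 and 1.62, 1.69 and 1.69 counts per base on M4. What sets the tables apart was not tested.

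With the M4 counts taken per kilobase of the M21 effective length and per 1e6 counts of the library, Ifngr1 was still the highest of the 9 genes, but Il27ra came before Ifnar1, and Ifngr2, at 39.3, came before Il10rb, at 31.5. Ifngr1 over Ifngr2 was then 6.002 in library 1, 10.4 in library 2 and 9.76 in library 3, in place of 39.7 to 44.8 on TPM. Il10ra over Il10rb was 0.238 in library 1 against 0.932 and 0.754 in libraries 2 and 3, so library 1 was again the low one. The log2 difference of library 1 for Il10ra was -1.16 on M4 and that for Il10rb 0.61.

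Ifnar2, Il10rb, Ifnar1 and Ifngr2 lie next to each other in this order within 192841 bases of the plus strand of chromosome 16. The gap from Ifnar2 to Il10rb is 574 bases, from Il10rb to Ifnar1 59403 bases and from Ifnar1 to Ifngr2 39630 bases. Gm21970 is annotated across the end of Ifnar2 and much of Il10rb on the same strand and had no count. On the opposite strand Gm42809 overlaps Il6ra by 281 bases, with 4.29 ± 0.520 TPM, and Palm3 overlaps Il27ra by 2 bases, with 4.52 ± 2.92 TPM (SD, n = 3 each). Whether counting used strand is not given, so those levels are uncertain where the genes overlap.

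Promoter windows of 300 bases, 250 before to 50 after the start, were matched in RefSeq on GRCm38.p6 for 6 of the 9 genes (Ifnar1, Ifnar2, Ifngr1, Ifngr2, Il6ra and Il6st). Their GC content ran from 57.0% to 74.3%, above the median of 52.7% over 32851 windows. The letters TTCNNNGAA, the core of the gamma-activated site that STAT factors bind, occurred in Ifnar1 and Ifnar2 and in 8.30% of all windows. They are shown because both chains of one receptor hold them, in capitals within 10 flanking bases on each side, at chr16:91372559-91372587 for Ifnar2 and chr16:91485200-91485228 for Ifnar1, plus strand.
Ifnar2: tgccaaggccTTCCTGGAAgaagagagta
Ifnar1: ggcgggggcgTTCACGGAAggggcggggc
The core AAANNGAAA of the interferon-stimulated response element was in none of the 6 windows and in 10.6% of all. The GC box GGGCGG was in 5 of them, all but Il6ra, and in 35.7% of all windows. The ETS core CCGGAAG was in Ifnar1 alone and in 8.86% of all. All were searched on both strands, and no motif contains another. A match is a description of the letters and not of binding.

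The pathway genes around the receptors were taken from 9 lists, in which 76 of 117 genes were detected and 64 of 78 tested were called by the chi-square test, next to the 75.8% of all genes. Among the ligands, none of 17 type I interferon genes was detected and 15 had no count, which allows at most 0.172, 0.196 and 0.178 counts per 1e6 in libraries 1, 2 and 3, from 3 counts each and for counting error only. Ifnb1 had 5 counts and Ifnk 1. Of 18 other ligands 5 were detected. Ifng, which encodes interferon gamma itself, was the highest, with 312 TPM in library 1 and 477 and 447 TPM in libraries 2 and 3, a mean of 412 ± 87.7 TPM (SD, n = 3). Clcf1, a cytokine that signals through gp130, averaged 26.4 TPM and Lif, another gp130 cytokine, 7.50 TPM, and both were at least 1.5-fold lower in library 1. Il10 was detected at 2.60 ± 0.728 TPM (SD, n = 3), while Il6 had 2 counts, Il27 had 2 and Ctf1, Ifnl2, Ifnl3 and Il20 had none.

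Of 17 related receptor chains 8 were detected. Il2rg, the common gamma chain, averaged 1903 TPM and was at least 1.5-fold higher in library 1, Il21r averaged 593 TPM and Il7r 562 TPM, both at least 1.5-fold lower there. No count was found for Ifnlr1 and Il22ra1, the partners of Il10rb in the interferon lambda and IL-22 receptors, nor for Il22ra2, the soluble IL-22 binding protein.

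The kinases and transcription factors of these receptors were all detected. The 4 Janus kinases had mean levels of 538 TPM for Jak1, 194 TPM for Jak2, 57.5 TPM for Jak3 and 42.0 TPM for Tyk2. All 4 were called between libraries, next to 75.8% of all genes tested. Jak3 and Tyk2 were called and at least 1.5-fold lower in library 1, as were 24.1% of all genes tested. Of the 7 STAT genes and Irf9, 7 were called, next to 75.8% of all genes tested. Stat4, the factor downstream of IL-12, averaged 342 TPM and Stat3 324 TPM. Stat5a was at least 1.5-fold lower in library 1, with 74.5 TPM against 149 and 129 TPM in libraries 2 and 3.

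Of the genes listed as inhibitors 16 of 17 were detected, and of those listed for receptor processing 4 of 4. Socs3, which binds gp130 and inhibits its kinases, led the inhibitors with 220 TPM in library 1 and 421 and 373 TPM in libraries 2 and 3. The phosphatase genes Ptpn6 and Ptpn1 averaged 209 and 175 TPM. Socs7 was the undetected inhibitor, with 0.65, 1.29 and 1.12 TPM. Of the 17 inhibitors 15 were called, 2 of them at least 1.5-fold higher and 4 lower in library 1. Over all genes tested these shares were 75.8%, 16.0% and 24.1%. All 4 receptor processing genes were called, next to 75.8% of all genes tested. In library 1, 1 of them was at least 1.5-fold higher and 2 were lower, next to 16.0% and 24.1% of all genes tested. Furin, a protease that matures other proteases, stood at 13.5 TPM in library 1 and at 166 and 152 TPM in libraries 2 and 3. Adam10, the higher one, had 98.5 TPM in library 1 and 67.3 and 52.8 TPM in libraries 2 and 3. Its mean was 72.9 TPM and that of Adam17, which sheds the IL-6 receptor, 29.7 TPM.

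The interferon target genes were all detected, 20 of 20, at a median of 31.4 TPM. Irf1 averaged 204 TPM, Ifi27l2a 188 TPM and Irf7 185 TPM. Counts of 13 of the 20 differed between libraries, next to 75.8% of all genes tested. Of the 20, 3 were called and at least 1.5-fold higher and 6 at least 1.5-fold lower in library 1. Over all genes tested these shares were 16.0% and 24.1%. Of 12 genes linked to STAT3, 11 were detected and called, next to 75.8% of all genes tested. At least 1.5-fold higher in library 1 were 2 of them, next to 16.0% of all genes tested. Junb led with 14760 TPM in library 1 and 6821 and 5911 TPM in libraries 2 and 3, Batf followed at 487 ± 3.23 TPM (SD, n = 3) and Pim1 averaged 270 TPM.

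**Figure D5:**
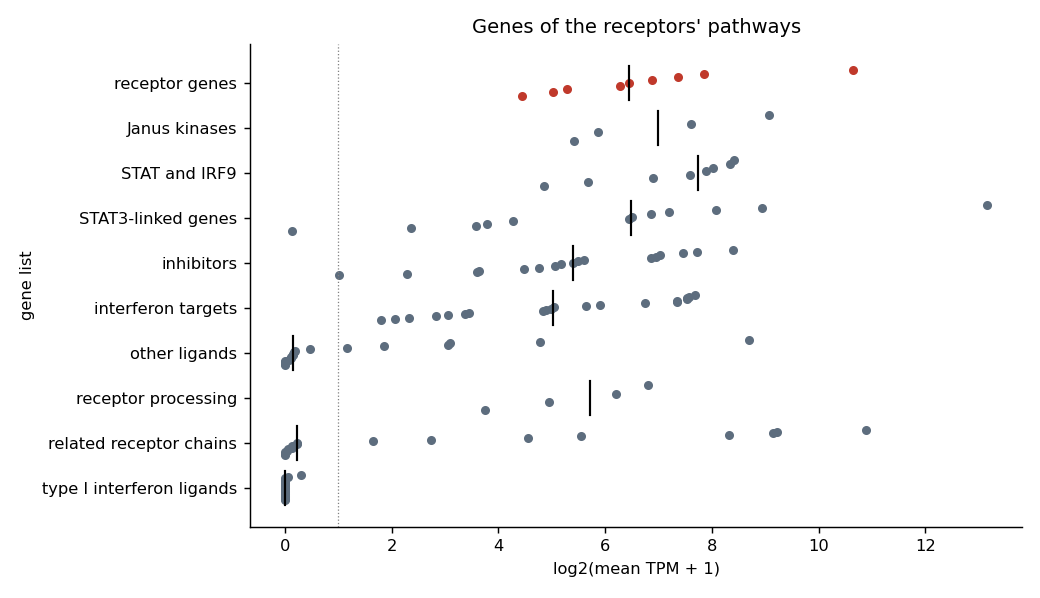
Mean level over 3 libraries, as log2(mean TPM + 1), of each receptor gene (red) and each gene of the pathway lists (grey), with lines at the medians and a dotted line at 1 TPM. The type I interferon ligands lie at or near 0, and every receptor gene, Janus kinase, STAT gene and interferon target lies right of the dotted line.

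For each receptor gene there were 103 candidates, namely the other receptor genes and the genes of these lists with any count. The candidate nearest in level was found by Euclidean distance in log2(TPM + 1) over the 3 libraries. The closest match was Xaf1 for Il6ra, at a distance of 0.083, with 34.6, 30.4 and 31.2 TPM in libraries 1, 2 and 3. Bcl3 was nearest to Il6st at 0.128, Ptpn2 to Ifnar2 at 0.132, Pias4 to Ifngr2 at 0.206, Ptpn6 to Ifnar1 at 0.229 and Adam10 to Il10rb at 0.272. The matches were looser for Il27ra, with Ifi27l2a at 0.444, for Ifngr1, with Il2rg at 0.628, and for Il10ra, with Il12rb1 at 0.775. These distances are over only 3 libraries of 1 biosample and describe levels, not a shared pattern over the libraries.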

How the data were processed

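Counts were taken from 3 polyA RNA-seq libraries of 1 biosample of effector memory CD4+ T cells. The authors deposited, per the file headers and file lists, gene and transcript tables on mm10 with GENCODE M21 that hold expected counts, which are estimates that share a read among transcripts and need not be whole. The deposited TPM and FPKM values were scaled within each library by the authors. The deposited percent column is a transcript's part of the TPM of its gene. A further deposited table without a header holds whole-number counts per gene on GENCODE M4, with 22457 genes, of which 22195 matched an M21 gene. No source used here names the aligner, the quantifier, the counter or the use of strand. The M21 tables have 81881 rows, from which 26248 numeric IDs and the spike-ins were left out of totals and tests.

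All 9 symbols matched 1 gene ID each. Levels are deposited TPM, ratios are differences of log2(TPM + 1), and detection meant a TPM no lower than 1 in every library. Expected counts rounded to whole numbers were tested with Pearson's chi-square test over the libraries, for genes with at least 30 counts in total, with Benjamini-Hochberg adjustment over all genes tested. A quasi-likelihood test was not run, since there is 1 group, and no animals were compared. The chi-square step was tested on simulated Poisson counts, which lack the median overdispersion of 19.9 of these data. That test cannot show how the step is calibrated for these libraries. Alternatives used edgeR 4.0.16 (TMM) and DESeq2 1.42.0 (size factors) in R 4.3.3 for scaling only, other minimums, FPKM, the M4 counts and leaving out each library. The order, the span of levels and the library 1 differences on M4 counts were added after seeing the data. Python 3.11.15 with numpy 2.4.6, scipy 1.17.1 and pandas 2.3.3 was used. The members and lists were chosen with earlier results of these data known. Named were all 9 receptor genes, in each list the 3 highest by mean TPM and any undetected ones up to 5, and transcripts with at least 10% of their gene's TPM. Further list genes, such as Il10, Stat5a and Tyk2, were named after their values were seen, and some genes the rule names are not reported here. Intervals and floors cover counting error only.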

Additional observations from a re-analysis of the deposited data

How the results depend on the processing

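Detection of all 9 genes and the sign of every chain ratio held under each alternative tried. The order held by FPKM and without any 1 library. All these ratios were on whole genes, not on coding transcripts alone. The median of the members' means was 51.9 in FPKM, against 86.5 in TPM, a change of unit. With M4 counts per effective base, 5 of 9 genes kept their place, and the log2 ratios moved to 0.43 for Ifnar1/Ifnar2, 3.05 for Ifngr1/Ifngr2, -0.82 for Il10ra/Il10rb and 1.07 for Il27ra/Il6st, and the cause was not tested. The number of receptor genes called by the chi-square test was 4 after division by the overdispersion, and from 3 to 9 when 1 library was left out. Without library 1 only Ifnar1, Il6st and Il10ra of the 9 were called (16.7% of all genes), without library 2 all but Il6ra (74.6%) and without library 3 all 9 (73.5%). Il6ra was also not called by the chi-square test with no count minimum, which called 35.8% of genes (Benjamini-Hochberg adjusted p = 0.0719), nor Ifnar2 with DESeq2 size factors (adjusted p = 0.859). The library 1 difference of Ifnar2 was 0.000153 on M4, at 0 in effect, against -0.18 on TPM. Median library 1 differences of all detected genes were -0.05 with TPM and 0.11 with DESeq2 size factors, and no receptor gene changed sign between TPM, total, TMM and DESeq2 scaling. The leading transcript changed in 3 of 9 genes (6 kept) when shares were taken from expected counts, and 2 of 9 had a leading transcript that is not coding. No paired analysis was possible because the libraries form 1 group. Ifngr2 and Il10ra had the fewest expected counts of the 9 over the libraries, 2042 and 2073. On M4, Il10rb had 370, 232 and 257 counts in libraries 1, 2 and 3. Il10ra had 173, 422 and 372 there and Ifngr2 437, 312 and 329.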
